A study of Rattus norvegicus with 8 samples.

Results

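Fatty acid beta-oxidation enzymes are described here as a set of 32 listed genes, of which 30 could be read on the arrays. A gene was read where the platform annotation gave a probe set (the group of probes that reports 1 transcript) exactly 1 symbol equal to a listed one, and where a gene had several, the brightest by its 8-array mean was taken. Slc22a5, the carnitine transporter of the plasma membrane, and Acaa1a, a peroxisomal thiolase, shared their probe sets with other symbols and were not read. The 30 genes stand among 14497 named genes and 28826 probe sets. The arrays measured left ventricle of female rats labelled LP, which the series title gives as late pregnancy. Every heart had undergone ischemia, a stop of the blood supply, and then reperfusion. Reperfusion came with ILPD as 1 bolus of 5 mg/kg in 5 samples, and with vehicle (placebo) in 3 samples. The design text calls the treatment ITLD and the title calls it Intralipid, a lipid emulsion; that these are 1 treatment is assumed. Hearts without ischemia and reperfusion were not analysed here, so both groups carry the injury. Neither the animals' age nor whether each sample is a separate animal is stated in the sources used here, so p-values reflect only how far these samples differ from each other, and part of that may be technical.

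The heart draws much of its ATP from long-chain fatty acids, which are bound to carnitine, carried into mitochondria and shortened there by repeated cycles of dehydrogenation, hydration, a second dehydrogenation and thiolytic cleavage. Electrons from the first step pass through electron transfer flavoprotein to the respiratory chain. Peroxisomes run a parallel pathway that shortens very long and branched chains, with an oxidase in place of the first dehydrogenase. Intralipid is itself a load of long-chain fatty acids, so the comparison asks whether transcripts of the enzymes that burn them differed between treated and vehicle hearts.

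Upstream sequence of 28 of the 32 listed genes was found in RefSeq's table of rat assembly GRCr8, as windows of 300 bases that run from 250 before to 50 after the start site. Cpt1b, Acadl, Acaa2 and Decr1 had no entry. A single pair stands apart by position. Hadha and Hadhb encode the alpha and beta subunits of the mitochondrial trifunctional protein. They lie head to head on chromosome 6 with start sites 301 bases apart, and their windows share 200 bases. The 250 bases before the Hadha start (GRCr8, chr6:31907551-31907800, plus strand) are shown because this stretch lies between the start sites of both subunit genes; capitals mark the bases that also lie in the Hadhb window.
Hadha upstream: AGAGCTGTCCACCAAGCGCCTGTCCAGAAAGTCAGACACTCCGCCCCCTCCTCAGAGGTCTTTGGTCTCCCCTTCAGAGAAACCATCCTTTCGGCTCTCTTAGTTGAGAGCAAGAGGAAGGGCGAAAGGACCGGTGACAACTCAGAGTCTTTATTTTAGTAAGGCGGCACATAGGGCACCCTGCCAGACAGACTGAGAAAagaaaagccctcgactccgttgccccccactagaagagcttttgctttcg

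Nuclear receptors of the PPAR and estrogen-related receptor families are known regulators of these genes, so their binding letters were searched on both strands of each window. The direct repeat of AGGTCA with a spacer of 1 base is a form of the PPAR element. It was in 0 of the 28 windows, against 0.0538% of 33469 promoters of the same length. The letters TCAAGGTCA, an estrogen-related receptor element, were in 0 of the 28, against 0.433% of all promoters. Motifs this rare would hardly be met in 28 windows, and only these letters were searched, so the 0 counts say little about either family. The half-site AGGTCA, which is part of both longer motifs, was in 6 of 28 windows (21.4%), against 16.2% of all promoters. The 6 were those of Acadvl, Echs1, Eci1, Eci2, Hadhb and Hsd17b4. Acadvl, the very-long-chain acyl-CoA dehydrogenase, was the member with more than 1 match, at positions -169 and -17 from its start site, and its 250 bases (GRCr8, chr10:55236706-55236955, minus strand) are shown with the matches in capitals.
Acadvl upstream: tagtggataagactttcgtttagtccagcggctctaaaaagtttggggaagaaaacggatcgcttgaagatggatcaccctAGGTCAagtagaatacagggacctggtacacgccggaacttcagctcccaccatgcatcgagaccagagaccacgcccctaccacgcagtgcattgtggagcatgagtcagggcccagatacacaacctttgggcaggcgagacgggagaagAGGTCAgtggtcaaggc

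Among the 30 measured genes, 0 passed limma's test at an adjusted p of 0.05 (Benjamini-Hochberg over all probe sets), against 2.81% of all probe sets (1.96% higher and 0.857% lower in ILPD). At an unadjusted p under 0.05 limma had 9 of the 30 (18.3% of all probe sets), which were 1 higher in ILPD (11.3% of all probe sets) and 8 lower (7.01%). The higher gene was Cpt1a, and the lower ones were Cpt1b, Crat, Acad9, Hadha, Echs1, Hsd17b10, Etfb and Acot13. Bright probe sets were lower more often: 41.5% of those with a mean log2 value of at least 12 were lower at this level. Among the listed genes this held for 5 of 11 with means from 12 to 13 and 0 of 3 with means from 13. Differences, ILPD minus placebo, ran from -0.36 for Acot13 to 0.47 for Cpt1a on the log2 scale, with standard errors from 0.051 to 0.195, and 25 of the 30 were negative. For 27 of the 30 the 95% interval of the difference, unadjusted, lay within a 1.5-fold change either way; the exceptions were Cpt1a, Acot13 and Ehhadh. The list's median difference was -0.10, and that of all probe sets was 0.022.

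**Figure D1:**
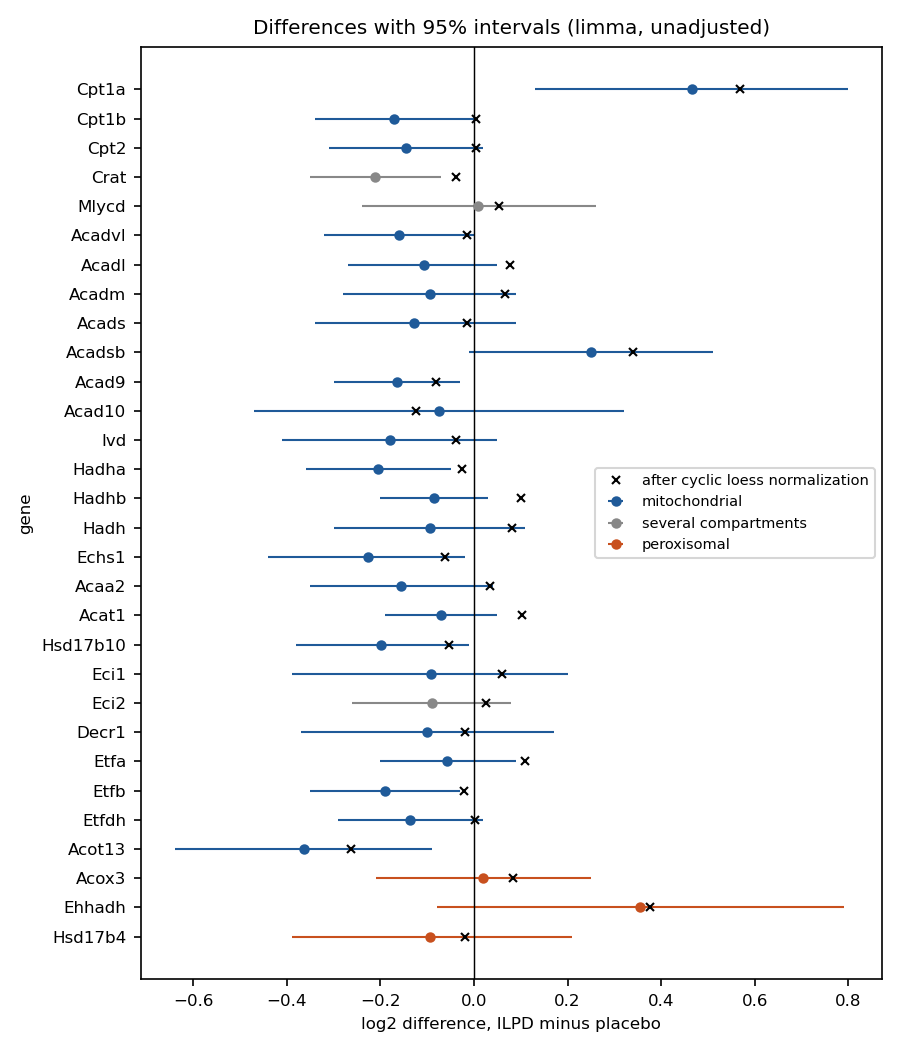
Log2 difference, ILPD minus placebo, for each of the 30 genes, with its unadjusted 95% interval from limma (5 ILPD and 3 placebo arrays); blue marks mitochondrial, grey several-compartment and orange peroxisomal enzymes, and crosses give the difference after cyclic loess normalization. As deposited 25 points lie below 0, while after cyclic loess 13 crosses do, and Cpt1a, Acadsb, Ehhadh and Acot13 stay farthest from 0.

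The small negative differences moved with the strength of the signal on the arrays. Of the 619 probe sets with a mean log2 value of at least 12, 90.3% had a negative difference, and 41.5% of all 28826 did. The median difference of all probe sets was -0.15 for mean values from 12 to 13, where 11 of the genes lie with a median of -0.145. It was -0.13 from 11 to 12, where 5 genes had a median of -0.16, and -0.10 from 10 to 11, where 7 genes had -0.10. The spread of values over an array moved the same way: its SD was 1.676 to 1.732 on the ILPD arrays and 1.740 to 1.766 on the placebo arrays, with no overlap. Cyclic loess normalization, which evens out such trends between arrays, gave a median of 0.005 for the 30 genes, with 13 of 30 negative and 0 past the adjusted threshold (1.95% of all probe sets passed). At an unadjusted p under 0.05, 2 genes were then higher (Cpt1a and Acadsb, 8.91% of all probe sets) and 1 was lower (Acot13, 6.52%). Why the arrays differ in spread was not tested.

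**Figure D2:**
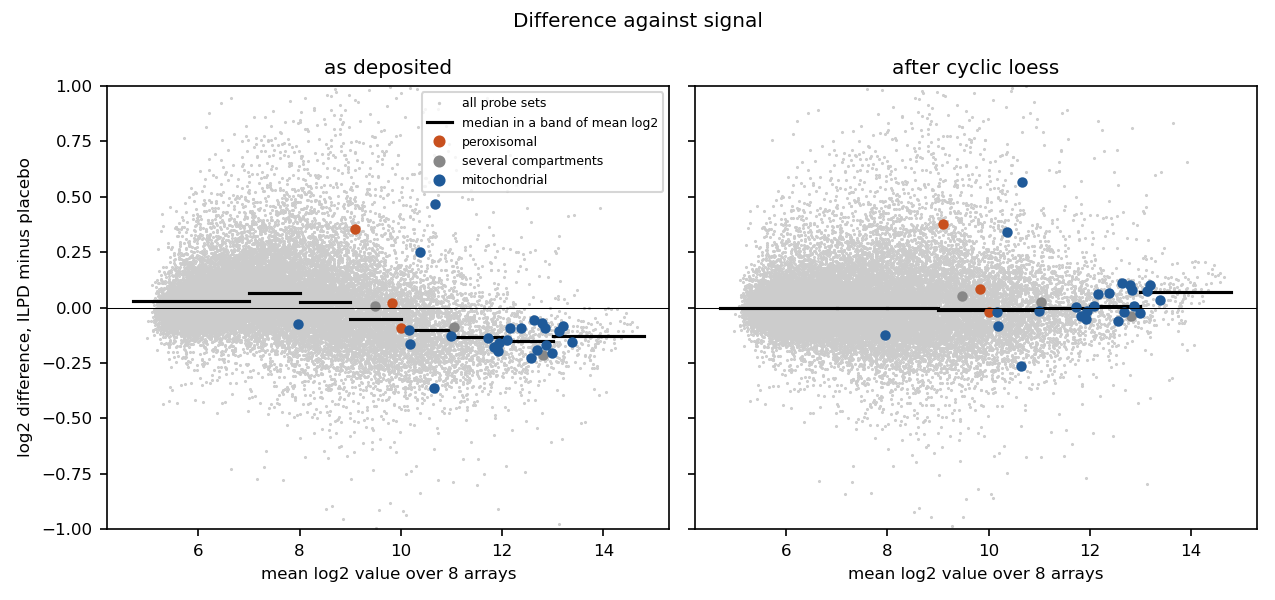
Log2 difference, ILPD minus placebo, against the mean log2 value over the 8 arrays for all 28826 probe sets (grey) and the 30 genes (coloured by location), as deposited on the left and after cyclic loess on the right; probe sets beyond 1 in either direction lie outside the axes. Black bars are medians in bands of mean value: most blue points follow the bars in both panels, and Cpt1a, Acadsb and Ehhadh lie above them.

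Entry of fatty acids into mitochondria showed the widest contrast within a step. Cpt1a is the liver-type and Cpt1b the muscle-type carnitine palmitoyltransferase 1 of the outer membrane, the step that malonyl-CoA inhibits. Cpt1a (probe set 10712657) had log2 values of 10.77, 11.14, 11.05, 10.51 and 10.75 in ILPD hearts, against 10.55, 10.51 and 10.09 in placebo hearts. Arrays 2 and 3 of ILPD were high and array 3 of placebo was low, and the groups overlapped through ILPD array 4. The means were 10.85 ± 0.25 in ILPD (SD, n = 5) and 10.38 ± 0.25 in placebo (SD, n = 3). The difference was 0.47 (SE 0.15, 95% interval 0.13 to 0.80, limma adjusted p = 0.137), a 1.38-fold ratio that did not pass. It was 0.32 to 0.61 over the 14 alternatives run for each gene, with an adjusted p from 0.0812 to 0.340.

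Cpt1b (probe set 10906302) had values of 12.80, 12.91, 12.95, 12.63 and 12.76 in ILPD hearts, against 12.98, 13.01 and 12.95 in placebo hearts. Placebo arrays lay close together at the top, and ILPD array 3 reached the lowest of them. The difference was -0.17 (SE 0.075, limma adjusted p = 0.264) as deposited and 0.005 after cyclic loess. Within each array, the log2 value of Cpt1a minus that of Cpt1b was -2.03, -1.77, -1.90, -2.12 and -2.01 in ILPD, and -2.43, -2.50 and -2.86 in placebo. Only the change in this gap can be read, since the probes of the genes differ, and the value was 0.64 higher in ILPD, or 0.56 after cyclic loess, with no overlap between groups on either scale. The pair was singled out after its values were seen, and the gap was not tested.

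Crat, carnitine acetyltransferase, which buffers acetyl-CoA as acetylcarnitine (probe set 10844183), had values of 12.68, 12.71, 12.79, 12.64 and 12.85 in ILPD hearts, against 12.97, 12.87 and 13.00 in placebo hearts. The groups did not overlap, and the difference of -0.21 (SE 0.063) had the lowest adjusted p of the 30 genes, 0.110 in limma. After cyclic loess it was -0.039 (adjusted p = 0.797). Without overlap and lower in ILPD were 5 of the 30 genes (Crat, Acad9, Hadha, Hadhb and Etfb), against 4.42% of all probe sets and 27.1% of those with a mean of at least 12; higher was 1, Acadsb, against 7.95%. Cpt2, the inner-membrane transferase, differed by -0.145 (adjusted p = 0.331). Mlycd, which breaks down malonyl-CoA, differed by 0.009 (SE 0.11, adjusted p = 0.979), with values of 9.19 to 9.71 in ILPD and 9.37 to 9.54 in placebo.

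**Figure D3:**
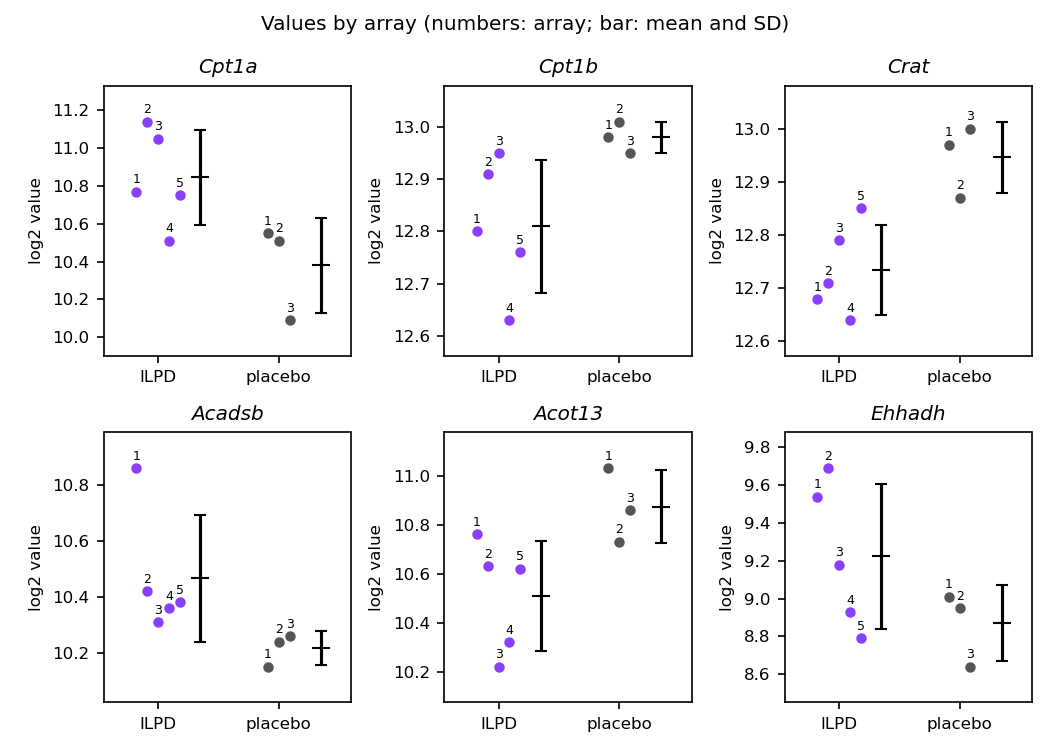
Log2 values by array of 6 genes, ILPD left of placebo; numbers beside points are the array numbers, and the bars give each group's mean and SD (n = 5 and n = 3). The axes do not start at 0 and differ between panels. The groups are apart for Crat (lower in ILPD) and Acadsb (higher in ILPD), and overlap for Cpt1a, Cpt1b, Acot13 and Ehhadh.

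The acyl-CoA dehydrogenases start each cycle, each for its own chain length or amino acid product. Of 8 measured, 7 had a negative difference, with a median of -0.12 for the 8 as deposited and -0.016 after cyclic loess. The chain-length series differed little: Acadvl (very long) by -0.16, Acadl (long) by -0.11, Acadm (medium) by -0.094 and Acads (short) by -0.13, with limma adjusted p from 0.279 to 0.605. Acadl had values of 13.17, 13.15, 13.10, 12.90 and 13.13 in ILPD hearts, against 13.27, 13.14 and 13.17 in placebo hearts. Its ILPD array 4 stood below all others. Acad9, known in human cells to help assemble respiratory complex I, had values of 10.01 to 10.19 in ILPD and 10.22 to 10.36 in placebo (-0.16, SE 0.061, adjusted p = 0.187). Ivd, the isovaleryl-CoA dehydrogenase of leucine breakdown, differed by -0.18 (adjusted p = 0.404), and Acad10 by -0.074 (adjusted p = 0.878).

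Acadsb, the short/branched-chain dehydrogenase of isoleucine breakdown (probe set 10711664), had a positive difference. Its values were 10.86, 10.42, 10.31, 10.36 and 10.38 in ILPD hearts, against 10.15, 10.24 and 10.26 in placebo hearts. All ILPD arrays lay above all placebo arrays, and ILPD array 1 stood far above the other ILPD arrays. The difference was 0.25 (SE 0.12, limma adjusted p = 0.293), or 1.19-fold, and 0.15 without ILPD array 1.

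The hydration, second dehydrogenation and thiolysis steps were negative in 7 of 7 genes as deposited, with a median of -0.155, and in 3 of 7 after cyclic loess, with a median of 0.035. The pair with the shared upstream stretch had small differences. Hadha had values of 12.98, 12.97, 12.91, 12.74 and 12.93 in ILPD hearts, against 13.17, 13.03 and 13.14 in placebo hearts. Hadhb had values of 13.18, 13.16, 13.22, 13.09 and 13.18 in ILPD hearts, against 13.27, 13.23 and 13.26 in placebo hearts. For both subunits the groups were apart, ILPD array 4 was the lowest of the 8 arrays and placebo array 1 the highest. The differences were -0.205 (SE 0.068, limma adjusted p = 0.147) for Hadha and -0.085 (SE 0.051, adjusted p = 0.423) for Hadhb. A second, dimmer Hadha probe set gave -0.13 (adjusted p = 0.405).

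Echs1, the short-chain enoyl-CoA hydratase, differed by -0.23 (SE 0.095, limma adjusted p = 0.241), with values from 12.29 to 12.65 in ILPD and from 12.60 to 12.84 in placebo. Hsd17b10, a mitochondrial hydroxyacyl-CoA dehydrogenase of isoleucine breakdown that in human cells is also part of mitochondrial RNase P, differed by -0.20 (adjusted p = 0.246). Acaa2, the mitochondrial thiolase, had values of 13.38, 13.33, 13.39, 13.07 and 13.43 in ILPD, against 13.49, 13.37 and 13.57 in placebo (-0.155, limma adjusted p = 0.389). Only ILPD array 4 lay well below the others. Hadh, the medium- and short-chain hydroxyacyl-CoA dehydrogenase, differed by -0.093, and Acat1, the acetoacetyl-CoA thiolase shared with ketone body use, by -0.070.

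The auxiliary enzymes prepare unsaturated chains for the cycle. Eci1 and Eci2, enoyl-CoA isomerases, differed by -0.092 and -0.090, and Decr1, the dienoyl-CoA reductase, by -0.10, with limma adjusted p from 0.588 to 0.776. Decr1 had values of 10.39, 10.29, 10.21, 9.88 and 9.88 in ILPD hearts, against 10.21, 10.16 and 10.32 in placebo hearts. Its ILPD values straddled the placebo values, with arrays 4 and 5 below all placebo arrays and array 1 above them. Electron transfer flavoprotein and its dehydrogenase, which pass electrons to ubiquinone, differed by -0.057 (Etfa), -0.19 (Etfb) and -0.14 (Etfdh), with adjusted p from 0.194 to 0.706.

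Acot13, a thioesterase that frees fatty acids from long-chain acyl-CoA (probe set 10795108), had the largest negative difference of the 30 genes. Its values were 10.76, 10.63, 10.22, 10.32 and 10.62 in ILPD hearts, against 11.03, 10.73 and 10.86 in placebo hearts. ILPD arrays 3 and 4 were low, and ILPD array 1 overlapped placebo array 2. The means were 10.51 ± 0.23 in ILPD (SD, n = 5) and 10.87 ± 0.15 in placebo (SD, n = 3), a difference of -0.36 (SE 0.12, 95% interval -0.64 to -0.09, limma adjusted p = 0.157). It stayed negative over the 14 alternatives, from -0.44 to -0.26, with an adjusted p from 0.091 to 0.414.

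Peroxisomal enzymes were set against mitochondrial ones as the rule of the set asks. Of 24 mitochondrial enzymes 22 had a negative difference, with a median of -0.13; of 3 measured peroxisomal enzymes 1 did, with a median of 0.020. None of the 3 passed the test. With 3 genes the median is the value of the middle gene, which was Acox3 here and in each alternative run for the median. This value changed sign with single arrays: leaving out ILPD array 2 gave -0.032, leaving out ILPD array 3 gave -0.021, and leaving out placebo array 3 gave -0.048. The 2 classes also lay at different signal: the median gene had a mean log2 value of 9.82 in the peroxisomal class and 12.13 in the mitochondrial class, and all probe sets with means from 9 to 10 had a median of -0.051, against -0.15 from 12 to 13. After cyclic loess the medians were 0.084 (peroxisomal) and 0.003 (mitochondrial). The 7 mitochondrial genes with means under 11 had a median of -0.10 as deposited and -0.019 after cyclic loess. Their median gene had a mean of 10.37, and all probe sets with means from 10 to 11 had a median of -0.10 as deposited. The gap between the classes was not tested, since 3 genes of the same arrays are no replicates.

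Ehhadh, the bifunctional hydratase and dehydrogenase of peroxisomes and in rodent liver a textbook target of PPARalpha (probe set 10752081), had values of 9.54, 9.69, 9.18, 8.93 and 8.79 in ILPD hearts, against 9.01, 8.95 and 8.64 in placebo hearts. ILPD arrays 1, 2 and 3 lay above all placebo arrays, and ILPD arrays 4 and 5 lay within their range. The difference was 0.355 (SE 0.195, 95% interval -0.08 to 0.79, limma adjusted p = 0.378), with the largest SD among ILPD arrays of the 30 genes, 0.38. Acox3, an oxidase for branched chains, differed by 0.020 (adjusted p = 0.946), and Hsd17b4, the other bifunctional enzyme, by -0.093 (adjusted p = 0.779). Hsd17b4 had values of 10.00, 10.28, 10.18, 9.67 and 9.72 in ILPD hearts, against 10.04, 10.06 and 10.10 in placebo hearts. Placebo arrays were tightly grouped, with ILPD arrays 2 and 3 above them, array 1 just below and arrays 4 and 5 well below.

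**Figure D4:**
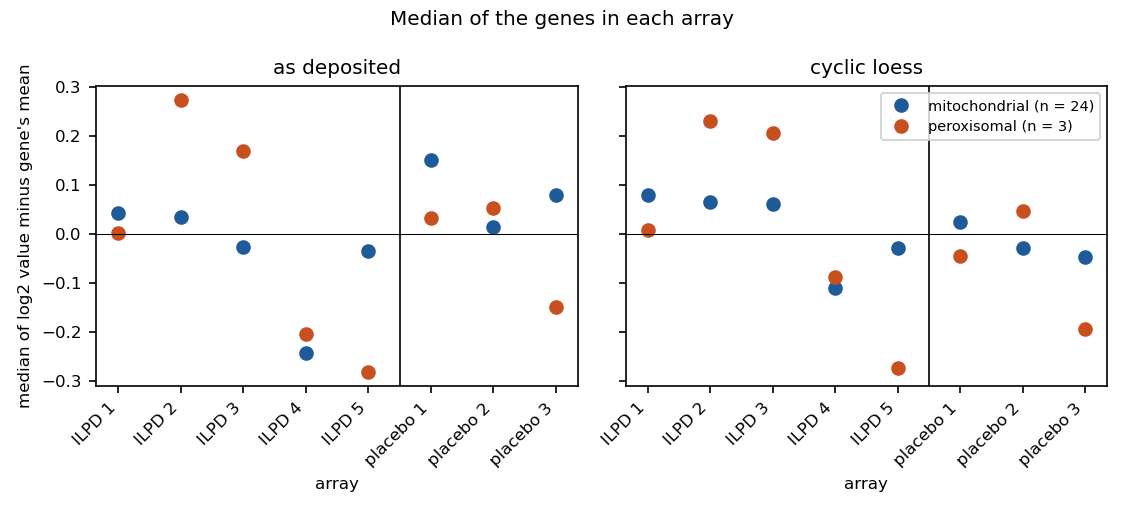
Median over 24 mitochondrial (blue) and 3 peroxisomal (orange) genes of each gene's log2 value minus its mean over the 8 arrays, by array, ILPD left of placebo, as deposited and after cyclic loess. ILPD array 4 is lowest for the mitochondrial genes in both panels (-0.243 and -0.111), and the peroxisomal genes spread from -0.283 to 0.275 among the ILPD arrays as deposited.

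The ILPD arrays differed among themselves in a way that many of the genes shared. ILPD array 4 was the lowest ILPD array for 25 of the 30 genes, against 22.8% of all probe sets. The share was 37.0% for probe sets with a mean of at least 11 and 28.8% with at least 12. Array 4 was also the lowest for all measured mitochondrial oxidation genes outside the set, except Acot2 and Etfbkmt. After cyclic loess it was the lowest for 16 of the 30 (53.3%), against 18.8% of all probe sets. Array 5 was then the lowest for 9 (30.0%), against 23.0% of all probe sets and 25.9% of those with a mean of at least 11. By Dixon's 95% bound, 1 ILPD array stood apart from the others in 4 of the 30 genes (5.58% of all probe sets and 6.95% of those with a mean of at least 12), and in 3 of them it was array 4 at the low end (0.552% and 1.45%). Of 12 ventricular cardiomyocyte markers, array 4 was lowest for 2 as deposited and for 2 after cyclic loess. The median of the 30 genes, each centred on its own mean, was 0.042, 0.047, -0.012, -0.237 and -0.052 on the ILPD arrays and 0.142, 0.016 and 0.067 on the placebo arrays. ILPD array 4 lay below all other arrays, and ILPD arrays 1 and 2 lay above placebo array 2. Without ILPD array 4, 24 of 30 differences were negative with a median of -0.075, and 0 genes passed the adjusted threshold. The array pattern was noticed in these data and carries no test.

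**Figure D5:**
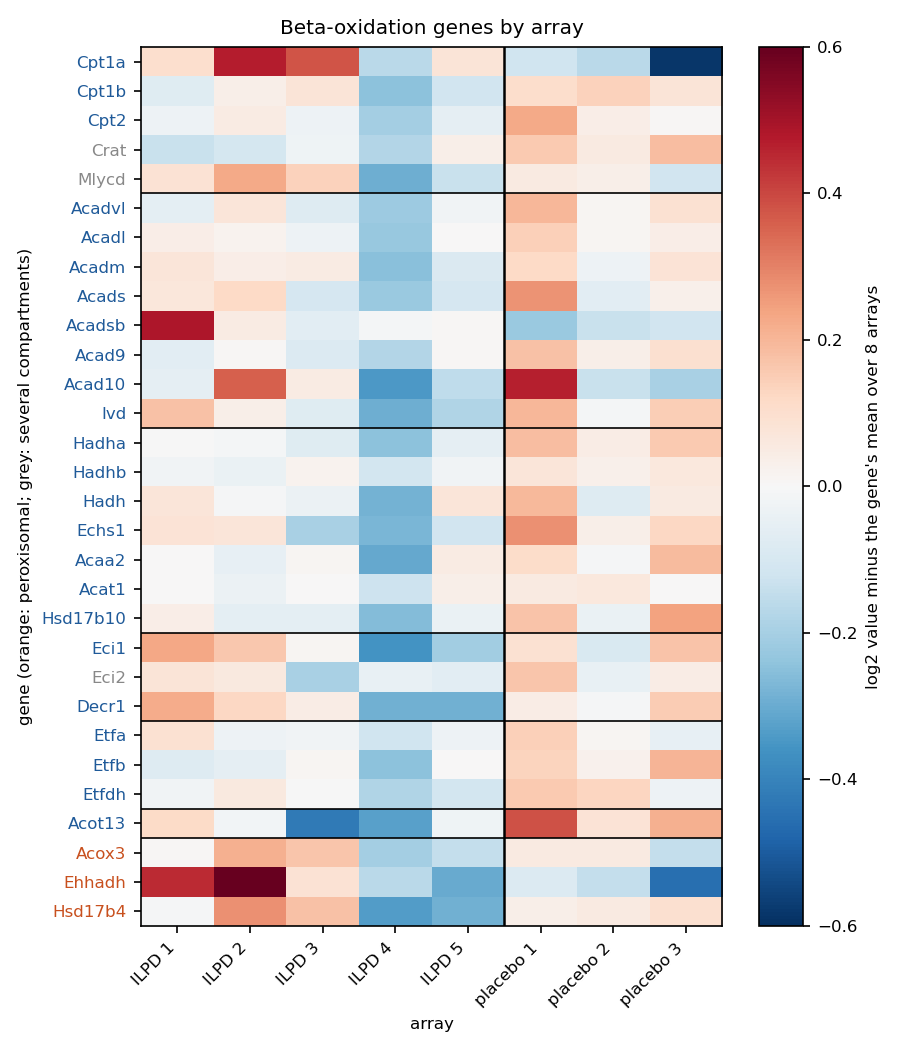
Log2 value minus the gene's mean over the 8 arrays, for 30 genes (rows, grouped by role) and 8 arrays (columns, ILPD left of placebo); red is above and blue below the gene's mean, and colours end at 0.6. On ILPD array 4 all 30 genes lie below their own means, and on placebo array 1 27 of 30 lie above theirs, with Cpt1a, Acadsb and Ehhadh as the exceptions there. The SD of values over the array was the lowest of the 8 on ILPD array 4 (1.676) and the highest on placebo array 1 (1.766). The shares of all probe sets beside these counts were not computed.

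Of the other genes of the pathway, none in the lists of this paragraph passed the adjusted threshold, against 2.81% of all probe sets. Among 12 measured mitochondrial oxidation genes outside the set (including the carnitine carrier Slc25a20), 0 passed, with a median of -0.036; the largest difference was 0.34 for Etfbkmt, a methyltransferase of electron transfer flavoprotein (limma adjusted p = 0.270). Among 16 peroxisomal oxidation genes 0 passed, with 8 positive and 8 negative and a median of 0.004; the largest was 0.24 for the transporter Abcd2 (adjusted p = 0.206). Of 12 peroxisome assembly genes 0 passed. Pex11a, which takes part in peroxisome division, had the largest difference there, 0.35 (SE 0.098, limma adjusted p = 0.0922). Its groups did not overlap, and 7.95% of all probe sets were likewise apart and higher in ILPD. The groups of Acot8, of the peroxisomal oxidation list, were also apart, with a difference of 0.067. Of 3 ketone body genes 0 passed, the largest difference being 0.19 for Acat2 (adjusted p = 0.391).

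In the list of malonyl-CoA and fuel-switch control, 1 of 9 genes passed as lower in ILPD (0.857% of all probe sets) and 0 passed as higher (1.96%). Pdk2, a kinase that restrains pyruvate dehydrogenase, had values of 12.84, 12.87, 12.86, 12.67 and 12.87 in ILPD hearts, against 13.12, 13.14 and 13.11 in placebo hearts. The groups were apart, with the difference at -0.30 (SE 0.060, limma adjusted p = 0.0329). Apart and lower in ILPD were 4.42% of all probe sets and 27.1% of those with a mean log2 value of at least 12. It was -0.12 after cyclic loess (adjusted p = 0.314) and -0.17 after quantile normalization (adjusted p = 0.187), and its call was also lost without any of the 3 placebo arrays, or without ILPD array 2 or 3 (highest adjusted p 0.116 among these); it held in 6 of the 14 alternatives. Pdk4, the isoform induced by fatty acids, differed by -0.21 (adjusted p = 0.322).

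Markers of ventricular cardiomyocytes were bright on all arrays, while some markers of other tissues also gave signal. Fewer cells of a type and less RNA per cell cannot be told apart in such samples. Over all probe sets 41.5% had a negative difference, 1.96% passed as higher in ILPD and 0.857% as lower. The 12 ventricular cardiomyocyte markers had list means of 13.50 to 13.68 in ILPD and 13.68 to 13.77 in placebo. Of these, 12 of 12 had a negative difference and 1 (Tnnc1) passed as lower. All of them have a mean log2 value of at least 12, where 90.3% of probe sets had a negative difference. Their median was -0.13 as deposited and 0.066 after cyclic loess. Neutrophil markers had list means of 8.35 to 9.47 in ILPD and 7.78 to 8.49 in placebo, with 5 of 5 positive and 0 passing (median 0.74). Adipocyte markers, a source of fat-oxidation transcripts outside muscle, lay between 6.77 and 6.99 in ILPD and between 6.71 and 6.79 in placebo. They had 5 of 5 positive and 0 passing (median 0.13 as deposited and 0.065 after cyclic loess). For atrial markers the means were 8.78 to 10.04 in ILPD and 9.29 to 9.79 in placebo. Among them Myl7, the atrial myosin light chain, varied widely, from 10.00 to 11.90 in ILPD and from 10.83 to 13.18 in placebo. Endothelial, smooth muscle, macrophage and fibroblast lists had 0 members past the threshold. In that order 4 of 5, 4 of 4, 4 of 5 and 0 of 6 differences were positive, with medians of 0.085, 0.15, 0.155 and -0.14. The list of hepatocyte genes had means of 7.24 to 7.62 in ILPD and 7.23 to 7.28 in placebo. Within that list Ttr, transthyretin, read 9.50 to 9.95 in ILPD and 9.52 to 10.00 in placebo. Alb, albumin, read 6.30 to 7.29 in ILPD and 6.05 to 6.20 in placebo, a difference of 0.60 (limma adjusted p = 0.145). The part of any of these in the values above was not tested.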

How the data were processed

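Total RNA of left ventricle was measured on Affymetrix arrays, per the labels' protocols. The deposited values are on a log2 scale, inferred from their range; whether and how the authors normalized them is not stated in what was read here, and R 2.14.2 is named in the submitters' processing notes. Array medians were 7.08 to 7.20, and precision is limited by how few arrays there are. Of 28826 probe sets, 15209 had 1 symbol, 306 several and 13311 none here.

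Groups came from the labels. Differences were fitted over all probe sets with limma 3.58.1 in R 4.3.3 (constant prior, no covariates, two-sided, Benjamini-Hochberg, threshold 0.05); figures used matplotlib 3.10.9 in Python 3.11.15. On simulated data of this comparison (28826 probe sets, 200 changed, 5 runs) the fit recovered 92.6% of 1.5-fold and 99.8% of 2-fold changes, with normal, independent noise. The changed probe sets were drawn at random from all 28826, so these rates are not those of the listed genes. Recovery falls as the standard error rises, and those of the listed genes ran from 0.051 to 0.195. Every listed gene was to be named, with each other pathway gene past the threshold and the largest difference of each pathway list. The genes, lists and alternatives were chosen with earlier results of these data known. As alternatives, the prior was made robust with an intensity trend, values were normalized by quantiles or cyclic loess, the dimmest 40% were filtered out, arrays were weighted or blocked by replicate number, the threshold was set to 0.1, a gene's probe sets were averaged, and each array was left out in turn. Planned protein comparisons were not run.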

Additional observations from a re-analysis of the deposited data

Results flagged for a closer look

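In 4 of the 30 genes, 1 ILPD array stood apart from the other 4 (5.58% of all probe sets). The gap took up more of the group's range than Dixon's 95% bound allows. Chance gives about 1 in 20 groups; the 30 genes share their arrays and are not independent groups. For 3 genes this was ILPD array 4 at the low end (0.552% of all probe sets): Acadl with a log2 value of 12.90 (next 13.10), Hadha with 12.74 (next 12.91) and Acaa2 with 13.07 (next 13.33). For Acadsb it was ILPD array 1 at the high end, with 10.86 (next 10.42). Placebo, with 3 arrays, was not tested this way.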

How the results depend on the processing

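The count of 0 genes past an adjusted p of 0.05 in limma held in the other 14 alternatives run for it and became 1, Ehhadh, with the replicate block (0.60, adjusted p = 0.03). With that block Pdk2 missed the threshold (-0.26, limma adjusted p = 0.119). Placebo has no arrays numbered 4 and 5, so ILPD arrays 4 and 5 do not enter the block's difference. Ehhadh read 8.93 and 8.79 on these. The count over all probe sets was 811; it was 484 after quantile normalization, 459 with the replicate block, 1756 at a threshold of 0.1, and 172 to 975 on leaving out 1 array. The replicate number did not pair the arrays: deviations of same-numbered arrays correlated at 0.221, -0.064 and -0.098. The median of the 30 genes (-0.10) was 0.005 after cyclic loess, and -0.161 to -0.075 on leaving out 1 array; that of the mitochondrial enzymes (-0.13) was -0.025 after quantile normalization and 0.003 after cyclic loess. That of the peroxisomal enzymes (0.020), which is the value of Acox3 throughout, was 0.142 with the replicate block and -0.048 to 0.073 on leaving out 1 array. Differences of the other sign, none past the threshold, came with the scaling, the replicate block and single arrays. After cyclic loess they were 0.005 for Cpt1b and Cpt2, 0.076 for Acadl, 0.066 for Acadm, 0.10 for Hadhb, 0.081 for Hadh, 0.035 for Acaa2, 0.103 for Acat1, 0.06 for Eci1, 0.025 for Eci2, 0.11 for Etfa and 0.002 for Etfdh. After quantile normalization they were 0.04 for Acadl, 0.07 for Acadm, 0.049 for Hadhb, 0.043 for Hadh and Eci1, 0.056 for Acat1, 0.009 for Eci2 and 0.084 for Etfa. With the replicate block they were 0.07 for Acad10, 0.075 for Eci1, 0.065 for Decr1 and 0.091 for Hsd17b4. On leaving out 1 array, Mlycd ran from -0.048 to 0.084, Acox3 from -0.048 to 0.073 and Acad10 from -0.195 to 0.136. Beyond the arrays that the block leaves out, the cause of these shifts was not tested. Cyclic loess by its construction removes a trend with signal. No background signal was used, so no probe set was called undetected.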
